A study of Mus musculus with 8 samples.

Results

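The 36 genes described here encode the enzymes, transporters and regulators that carry glucose through glycolysis, gluconeogenesis, glycogen storage, fructose entry and the pentose phosphate pathway in mouse liver. They were taken as a list of carbohydrate metabolism genes given by name, with no cutoff on a measured value, and matched by symbol to 36 of the 55401 gene identifiers measured. All 36 had enough counts to be among the 13908 genes tested. RNA came from the livers of C57BL/6J mice whose hepatocytes had received an adeno-associated virus with a control short hairpin RNA (shNC) or with a hairpin against Tbl1xr1 (shTbl1xr1), with 4 libraries per group. In both groups most of the liver was removed by partial hepatectomy 4 weeks after the virus, and the regenerating remnant was taken on day 2. Tbl1xr1 encodes a subunit of the NCoR and SMRT corepressor complexes, and the comparison addresses its part in liver regeneration. Untreated and unoperated livers were not analysed here, so each value compares the hairpins in operated animals only. Libraries are numbered within a group, but whether each number is a separate animal is not stated in the labels; p-values therefore cover the spread among these 8 libraries, part of which may be technical. The hairpin was aimed at hepatocytes while whole liver was sequenced, and in such bulk RNA fewer cells of a type and less RNA per cell cannot be told apart.

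The liver takes up glucose after a meal and makes it between meals. Inside the cell glucose is trapped as glucose 6-phosphate, which can enter glycolysis toward pyruvate, be stored as glycogen, or be oxidised in the pentose phosphate pathway, which supplies NADPH and ribose for nucleotides. Gluconeogenesis runs the path in reverse, from lactate, alanine and glycerol to free glucose, and its last step needs a glucose 6-phosphatase and a transporter in the endoplasmic reticulum. After partial hepatectomy a small remnant has to hold blood glucose while its hepatocytes divide and need biosynthetic precursors.

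Libraries of shTbl1xr1 1 and 2 stood apart before any member was examined. They held 10895508 and 10728583 counts, whereas the other 6 libraries held 25811763 to 36720879, and mitochondrially encoded genes took 11.3% and 14.8% of their counts against 4.52% to 7.34% in the others. These libraries are called the shallow pair below, and shTbl1xr1 3 and 4 the deeper pair. Both members of the shallow pair are shTbl1xr1, so depth cannot be told apart from the hairpin in them. For many of the genes, results are given with and without them. The 36 genes together took 1.11% to 1.44% of counts in the deeper 6 libraries and 0.796% to 1.01% in the shallow pair. Tbl1xr1 (ENSMUSG00000027630.13), the target, measured 27.2, 35.9, 33.7 and 34.6 CPM in shNC and 2.38, 2.07, 9.24 and 15.9 CPM in shTbl1xr1 1 to 4. CPM here are read counts relative to library size, scaled by the trimmed mean of M-values (TMM). All 4 shTbl1xr1 libraries lay below every shNC library (two-sided exact permutation test on log2 of CPM plus 1, p = 0.0286, the smallest that 4 libraries against 4 allow).

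Markers of other cells moved with the shallow pair. The summed level of 10 macrophage markers was 258 to 279 CPM there against 551 to 896 CPM in shNC, with 9 of the 10 below every shNC library. For 8 endothelial markers the sum was 120 to 139 CPM against 211 to 238 CPM, with all 8 below every shNC library, and for 8 stellate cell markers it was 160 to 163 CPM against 270 to 491 CPM. In the deeper pair these sums were 692 to 746, 234 to 242 and 282 to 522 CPM. Hepatocyte markers, 10 in number, summed to 97577 to 109856 CPM in the shallow pair, 58555 to 84314 CPM in the deeper pair and 63624 to 85698 CPM in shNC, so the tissue label was met in every library. The 5 skeletal muscle markers summed to at most 0.138 CPM in any library and the 4 adipocyte markers to at most 0.830 CPM. Of these, the muscle markers Mb and Tnnt3 and the adipocyte marker Lep were at 0 in all 8 libraries. Cholangiocyte markers summed to 239 CPM in shTbl1xr1 3, above the 32.4 to 119 CPM of shNC. The 7 periportal hepatocyte markers summed to 4763 to 6193 CPM in shTbl1xr1 and 3184 to 4285 CPM in shNC, without overlap. Singly, 4 of the 7 were above every shNC library in the shallow pair and 1 in the deeper pair. The 7 pericentral markers summed to 8711 to 10614 CPM in the shallow pair, with 6 of the 7 above every shNC library, to 3368 to 4939 CPM in the deeper pair and to 3755 to 5623 CPM in shNC. The part of these differences in the values below was not tested, except where a value without the shallow pair is given.

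None of the 36 genes passed the test between the groups. By edgeR's quasi-likelihood test with Benjamini-Hochberg adjustment over all 13908 genes, 0 of 36 were called higher, where 0.0431% of all genes were, and 0 of 36 lower, where 0.00719% were. Adjusted p-values of the members ran from 0.232 to 0.973. Before adjustment, 8 members had p under 0.05 with a higher level in shTbl1xr1 (7.9% of all genes) and 2 with a lower level (3.71% of all genes). The levels of 4 members, Gpi1, Gyg, Pgd and Tkt, lay above the highest shNC library in all 4 shTbl1xr1 libraries (3.88% of all genes). Those of 2 members, G6pc and Ppp1r3c, lay lower in all 4 (3.37% of all genes). The median log2 fold change was 0.24 over the members and 0.01 over all genes tested, with 23 members positive and 13 negative; 50.6% of all genes were positive.

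These counts shift with the scaling. With library size alone in place of TMM, the median log2 fold change of all genes was -0.27. On that scale 0 members lay higher and 4 lower without overlap, namely Ldha, Fbp1, G6pc and Ppp1r3c, where 8.01% of all genes did not overlap in either direction. On the deposited TPM it was 0 higher and 3 lower, namely Ldha, G6pc and Ppp1r3c, where 6.39% of all genes did not overlap. Relative to the median of all genes, 24 members were positive by library size and 1 of the 36 changed sign, so the directions below are relative to the median gene. G6pc and Ppp1r3c kept their separation on all 3 scales.

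**Figure D1:**
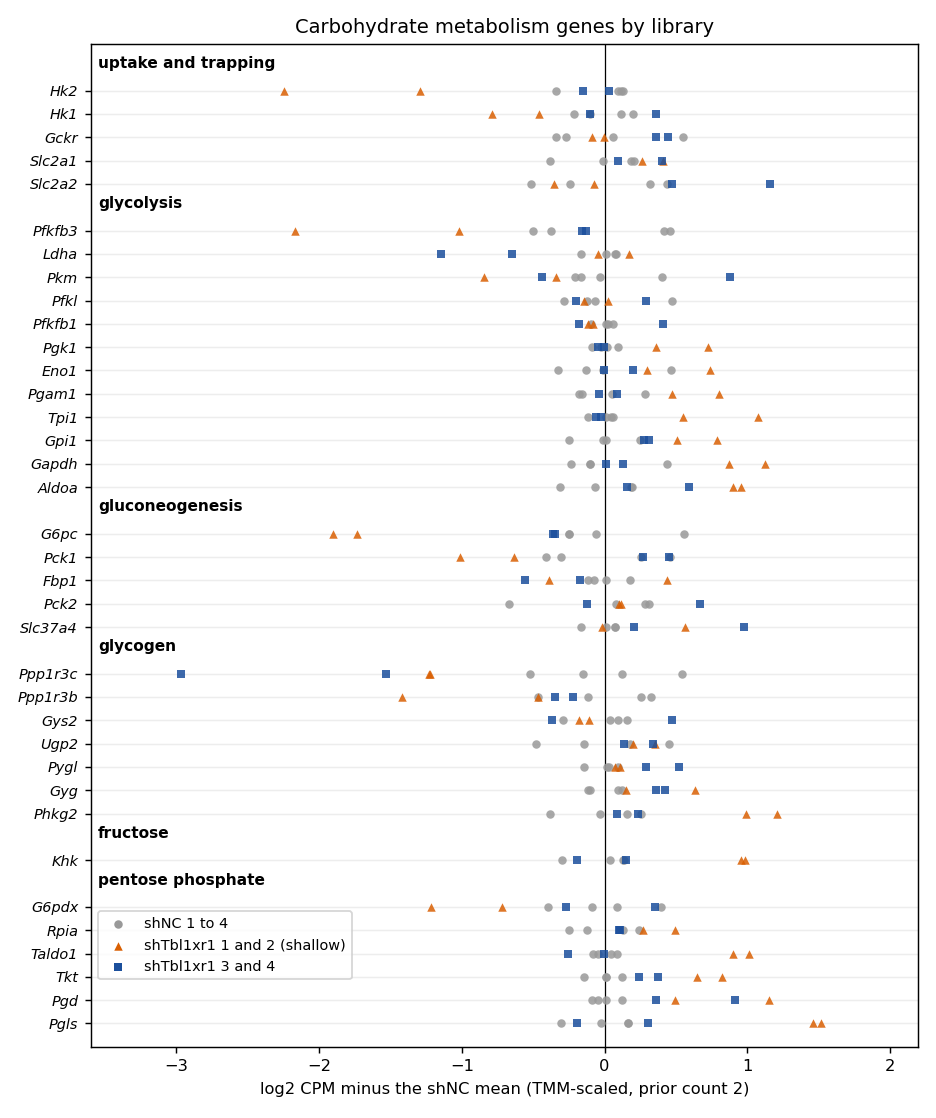
Each row is 1 of the 36 genes, grouped by role, and each symbol is 1 library, placed by its log2 CPM minus the mean of the 4 shNC libraries (TMM-scaled, prior count 2). Grey circles are shNC, orange triangles the shallow pair shTbl1xr1 1 and 2, and blue squares shTbl1xr1 3 and 4; in many rows the triangles lie far from the squares, while in Ppp1r3c all 4 shTbl1xr1 libraries lie left of every circle.

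The stretches before the start sites of the genes that separated on 3 scales, and of Pgd, which had the second smallest p of the members, are shown because their values stand out among the members, although none passed the edgeR test. Sequences are from RefSeq on GRCm38.p6, where 34 of the 36 members had a promoter entry; Gys2 and Ppp1r3b did not. Of the 250 bases before the RefSeq start, the part before the first base that GENCODE gives to an exon is printed, 5′ to 3′ on the gene's strand. Capitals mark every match, on either strand, to the E-box CACGTG, the antioxidant response element core TGACNNNGC, the hypoxia element core ACGTG, which the E-box contains, the cyclic AMP element TGACGTCA and its core TGACG, the CCAAT box CCAAT, and the GC box GGGCGG.
Ppp1r3c (chr19:36736654-36736854, minus strand): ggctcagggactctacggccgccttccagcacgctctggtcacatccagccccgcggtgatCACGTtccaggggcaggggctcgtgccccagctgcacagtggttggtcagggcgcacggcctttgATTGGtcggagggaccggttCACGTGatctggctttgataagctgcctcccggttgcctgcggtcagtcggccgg
G6pc (chr11:101367466-101367560, plus strand): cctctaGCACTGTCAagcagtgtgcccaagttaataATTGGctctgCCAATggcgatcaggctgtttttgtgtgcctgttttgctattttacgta
Pgd (chr4:149166772-149166955, minus strand): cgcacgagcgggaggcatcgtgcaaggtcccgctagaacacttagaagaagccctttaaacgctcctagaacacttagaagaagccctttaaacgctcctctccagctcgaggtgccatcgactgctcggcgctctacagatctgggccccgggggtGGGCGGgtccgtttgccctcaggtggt
Ppp1r3c holds an E-box that starts 104 bases before the RefSeq start and a CCAAT box at 124 bases, with a separate hypoxia element core at 189 bases. G6pc holds an antioxidant response element core at 244 bases and CCAAT boxes at 214 and 204 bases. Pgd holds a GC box at 93 bases, and CCAAT boxes at 46 and 9 bases in the part not printed. Of the 2 promoter entries of Pgd, the first that held a match is shown. In the full windows of 250 bases, the E-box was present in 4 of the 34 members (Khk, Ldha, Pfkfb3 and Ppp1r3c) and in 6.86% of all 27025 genes of the table. The antioxidant response element core was in 5 of 34 (Aldoa, Fbp1, G6pc, G6pdx and Hk1) and 11.5% of all genes, and the hypoxia element core in 12 of 34 and 18.5%. The GC box was in 26 of 34 and 35.4% of all genes, the CCAAT box in 16 of 34 and 37.5%, TGACG in 8 of 34 and 19.8%, and TGACGTCA in 1 of 34, Ldha, and 1.77%. A match is a description of the letters and not of binding.

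Over all libraries, the pentose phosphate pathway had the highest median of the role groups with several members. Of its 6 genes, 5 had a positive log2 fold change, with a median of 0.53, and 0 were called. The ranking did not hold without the shallow pair. With the deeper pair alone its median was 0.08, above glycolysis (0.04) but below gluconeogenesis (0.27), uptake and trapping (0.24) and glycogen (0.14). Pgd, the 6-phosphogluconate dehydrogenase that makes NADPH in the oxidative branch, is ENSMUSG00000028961.15 on GRCm38 chromosome 4 (149149991 to 149166771, minus strand). It measured 49.3, 57.2, 52.8 and 50.8 CPM in shNC and 117, 74.0, 99.0 and 67.4 CPM in shTbl1xr1 1 to 4. Every shTbl1xr1 library lay above every shNC library, and each pair, shallow and deeper, held 1 library at 99.0 CPM or above and 1 at 74.0 CPM or below. The means were 52.6 ± 3.42 and 89.4 ± 22.9 CPM (SD, n = 4), a log2 fold change of 0.77 with a standard error of 0.19 (edgeR adjusted p = 0.276). With the deeper pair alone it was 0.66 and with the shallow pair alone 0.86. DESeq2 on the same counts called it higher (adjusted p = 0.0214), where DESeq2 called 1.78% of all genes higher.

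Tkt, transketolase of the non-oxidative branch (ENSMUSG00000021957.7; chromosome 14, 30548359 to 30574720, plus strand), measured 99.0, 99.1, 88.7 and 107 CPM in shNC. Its levels in shTbl1xr1 1 to 4 were 174, 154, 127 and 116 CPM. The groups did not overlap, but the shallow pair lay far higher than the deeper pair, of which shTbl1xr1 4 was within 10 CPM of the highest shNC library. The log2 fold change was 0.54 with a standard error of 0.17 (edgeR adjusted p = 0.345), and 0.31 with the deeper pair alone.

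Pgls, the 6-phosphogluconolactonase between the 2 dehydrogenases of the oxidative branch, had the largest positive log2 fold change of the members, 0.93 with a standard error of 0.36 (edgeR adjusted p = 0.406). Its levels were 42.6, 30.8, 42.7 and 37.4 CPM in shNC and 105, 109, 47.1 and 33.3 CPM in shTbl1xr1 1 to 4. Only the shallow pair stood above shNC by a wide margin; the deeper pair gave 0.07 alone and shTbl1xr1 4 lay within the shNC range. Taldo1, transaldolase, had the same form, with 117 to 131 CPM in shNC, 231 and 250 CPM in the shallow pair and 123 and 104 CPM in the deeper pair. Its log2 fold change of 0.51 became -0.13 with the deeper pair alone. G6pdx, glucose 6-phosphate dehydrogenase, which opens the pathway, measured 5.65 to 9.86 CPM in shNC and 4.51, 3.18, 9.60 and 6.20 CPM in shTbl1xr1 1 to 4. Over all libraries it was the only pentose phosphate member with a negative value, -0.34 with a standard error of 0.32 (edgeR adjusted p = 0.65). With the deeper pair alone G6pdx was at 0.045, and Taldo1 was the only negative member. Rpia, the ribose 5-phosphate isomerase, measured 2.69 to 3.80 CPM in shNC and 3.45 to 4.56 CPM in shTbl1xr1.

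Within each library, the ratio of Pgd to G6pdx does not depend on how libraries are scaled. On the deposited TPM its log2 value was 3.02, 3.03, 2.55 and 3.25 in shNC and 4.98, 4.48, 3.51 and 3.44 in shTbl1xr1 1 to 4. All 4 shTbl1xr1 libraries lay above shNC, with means of 2.96 ± 0.29 and 4.10 ± 0.75 (SD, n = 4), and they did so on expected counts as well. On average Pgd thus measured 7.79 times G6pdx per length in shNC and 17.2 times in shTbl1xr1. The shallow pair lay highest, where G6pdx held only 36 and 23 counts, and the deeper pair lay closer to shNC.

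Among the 7 glycogen genes, 4 had positive and 3 negative log2 fold changes, with a median of 0.22, and 0 were called. Ppp1r3c encodes a targeting subunit that brings protein phosphatase 1 to glycogen, where it activates glycogen synthase (ENSMUSG00000067279.3; chromosome 19, 36731731 to 36736653, minus strand). It measured 62.5, 29.9, 46.8 and 38.7 CPM in shNC and 18.3, 18.4, 14.8 and 5.40 CPM in shTbl1xr1 1 to 4. All 4 shTbl1xr1 libraries lay below every shNC library, and the lowest was the deepest library, shTbl1xr1 4. The shNC mean was 44.5 ± 13.9 CPM and the shTbl1xr1 mean 14.2 ± 6.10 CPM (SD, n = 4), or 31.9% of shNC. The log2 fold change was -1.67 with a standard error of 0.38, the smallest adjusted p of the members by edgeR, 0.232. It was -2.14 with the deeper pair alone and -1.28 with the shallow pair alone, so here the difference was as large without the shallow pair. DESeq2 called Ppp1r3c lower (adjusted p = 0.0049), where it called 0.338% of all genes lower.

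Ppp1r3b, a related subunit, measured 54.2, 69.1, 94.0 and 89.6 CPM in shNC and 27.9, 54.3, 59.0 and 64.3 CPM in shTbl1xr1 1 to 4. Per length it was close to Ppp1r3c in shNC, at 24.6 ± 7.27 TPM against 22.8 ± 6.05 TPM (SD, n = 4). The groups of Ppp1r3b overlapped, with only shTbl1xr1 1 below every shNC library. Its log2 fold change was -0.58 with a standard error of 0.28 (edgeR adjusted p = 0.429), and -0.32 with the deeper pair alone. Gyg, glycogenin, the protein primer on which glycogen is built (ENSMUSG00000019528.18; chromosome 3, 20122084 to 20155317, minus strand), measured 9.47, 8.03, 8.10 and 9.30 CPM in shNC. Its levels in shTbl1xr1 were 13.5, 9.67, 11.7 and 11.2 CPM, all above shNC, though shTbl1xr1 2 exceeded the highest shNC library by little. The log2 fold change was 0.40 with a standard error of 0.16 (edgeR adjusted p = 0.412), 0.39 with the deeper pair alone and 0.41 with the shallow pair alone.

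Phkg2, the catalytic subunit of liver phosphorylase kinase, which switches on glycogen breakdown, measured 8.36, 10.7, 13.0 and 12.2 CPM in shNC and 21.8, 25.3, 12.8 and 11.6 CPM in shTbl1xr1 1 to 4. The shallow pair was above shNC and the deeper pair within it; the log2 fold change of 0.67 (standard error 0.28, edgeR adjusted p = 0.412) was 0.14 with the deeper pair alone. Gys2, the liver glycogen synthase itself, had an shNC mean of 68.4 ± 8.96 CPM and an shTbl1xr1 mean of 67.4 ± 18.4 CPM (SD, n = 4), a log2 fold change of -0.02 with a standard error of 0.21. Pygl, the liver glycogen phosphorylase, gave 211 to 250 CPM in shNC and 245 to 336 CPM in shTbl1xr1, with a log2 fold change of 0.26. Ugp2, which makes the UDP-glucose used for glycogen, gave 183 to 349 CPM in shNC and 281 to 326 CPM in shTbl1xr1, with a log2 fold change of 0.22. The synthase, the phosphorylase, the UDP-glucose enzyme, Phkg2 and Ppp1r3b thus overlapped between groups. Ppp1r3c, lower in shTbl1xr1, and Gyg, higher in shTbl1xr1, did not.

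**Figure D2:**
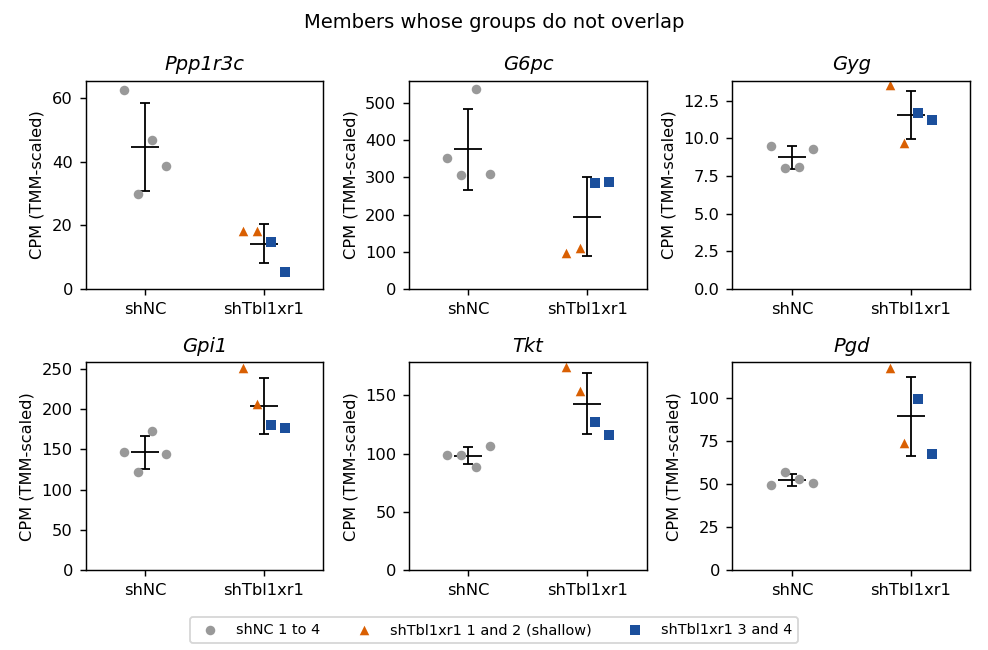
TMM-scaled CPM of the 6 members whose groups did not overlap, 1 panel per gene with its own axis from 0; grey circles are shNC, orange triangles the shallow pair, blue squares shTbl1xr1 3 and 4, and bars give the mean and SD of each group. Ppp1r3c and G6pc lie lower and the other 4 higher in shTbl1xr1, and in G6pc, Gpi1 and Tkt the shallow pair lies farther from shNC than the deeper pair does.

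Gluconeogenesis had 2 positive and 3 negative members, a median of -0.12, and 0 called. The sign of that median was not stable: it was 0.27 with the deeper pair alone and 0.05 with the shallow pair alone, each with 3 positive members. G6pc, the catalytic subunit of glucose 6-phosphatase that releases free glucose (ENSMUSG00000078650.2; chromosome 11, 101367561 to 101377903, plus strand), measured 351, 307, 537 and 308 CPM in shNC. In shTbl1xr1 1 to 4 it measured 97.6, 110, 284 and 287 CPM. All 4 lay below shNC, the shallow pair by far and the deeper pair by little. The means were 376 ± 109 and 195 ± 105 CPM (SD, n = 4), so shTbl1xr1 stood at 51.8% of shNC, with a log2 fold change of -0.95 and a standard error of 0.39 (edgeR adjusted p = 0.414). With the deeper pair alone the log2 fold change was -0.40 and with the shallow pair alone -1.86.

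Slc37a4, the transporter that brings glucose 6-phosphate to that phosphatase, measured 56.4, 49.9, 59.0 and 58.9 CPM in shNC and 55.3, 82.9, 64.7 and 110 CPM in shTbl1xr1 1 to 4. In 3 of 4 shTbl1xr1 libraries it was above every shNC library, and the log2 fold change was 0.48 with a standard error of 0.22 (edgeR adjusted p = 0.426). It was 0.64 with the deeper pair alone, 0.30 with the shallow pair alone and 0.27 without shTbl1xr1 4. Pck1, the cytosolic phosphoenolpyruvate carboxykinase, measured 1640, 1519, 2783 and 2411 CPM in shNC and 1001, 1301, 2440 and 2768 CPM in shTbl1xr1. Its shallow pair was below and its deeper pair within shNC, with a log2 fold change of -0.15 over all libraries and 0.32 with the deeper pair alone. Pck2, the mitochondrial form, gave 9.66 to 19.1 CPM in shNC and 14.1 to 24.5 CPM in shTbl1xr1. Fbp1, the fructose 1,6-bisphosphatase, measured 1052 to 1287 CPM in shNC and 1548, 872, 775 and 1013 CPM in shTbl1xr1 1 to 4. Its 3 lower shTbl1xr1 libraries were below every shNC library and the fourth above every one, and the log2 fold change was -0.12 (edgeR adjusted p = 0.851).

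Of the 12 glycolysis members, 8 were positive and 4 negative, with a median log2 fold change of 0.30, and 0 were called. Gpi1, the glucose 6-phosphate isomerase (ENSMUSG00000036427.5; chromosome 7, 34201330 to 34230336, minus strand), measured 147, 122, 172 and 145 CPM in shNC and 251, 207, 181 and 176 CPM in shTbl1xr1 1 to 4. Groups did not overlap, but the deeper pair exceeded the highest shNC library by under 10 CPM. The log2 fold change was 0.48 with a standard error of 0.18 (edgeR adjusted p = 0.406), 0.28 with the deeper pair alone and 0.64 with the shallow pair alone.

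Aldoa, the aldolase found in most tissues, measured 110, 91.9, 110 and 77.4 CPM in shNC and 187, 180, 145 and 107 CPM in shTbl1xr1 1 to 4. It was above every shNC library in 3 of 4, with a log2 fold change of 0.67 and a standard error of 0.21 (edgeR adjusted p = 0.345). With the deeper pair alone the log2 fold change of Aldoa was 0.37. The 5 enzymes that follow aldolase down to phosphoenolpyruvate, Tpi1, Gapdh, Pgk1, Pgam1 and Eno1, had positive values of 0.46, 0.59, 0.29, 0.36 and 0.30. In Gapdh, which oxidises glyceraldehyde 3-phosphate, shNC gave 1464, 1463, 2128 and 1334 CPM and shTbl1xr1 3425, 2874, 1719 and 1579 CPM. Only its shallow pair left the shNC range. With the deeper pair alone the 5 values were -0.05, 0.04, -0.03, 0.01 and 0.07, so their differences were those of the shallow pair.

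Ldha, which converts pyruvate to lactate and back, had the opposite arrangement. Its shallow pair, at 2502 and 2148 CPM, sat at or just above the level of shNC, which measured 2333, 2352, 1978 and 2240 CPM. The deeper pair was lower at 1415 and 1003 CPM. The log2 fold change was -0.33 over all libraries and -0.88 with the deeper pair alone (edgeR adjusted p = 0.224 in that fit, which called 0.0478% of all genes and 0 members).

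The remaining glycolysis members set the pace of the pathway or end it. Pfkfb3, a kinase that makes the activator of phosphofructokinase, measured 13.7, 12.5, 24.5 and 23.7 CPM in shNC. It measured 3.88, 8.70, 15.9 and 16.3 CPM in shTbl1xr1 1 to 4, with the shallow pair lowest. Its log2 fold change was -0.70 (edgeR adjusted p = 0.49), and -0.21 with the deeper pair alone. Pfkfb1, its liver counterpart, gave 30.6 to 34.0 CPM in shNC and 28.8 to 43.3 CPM in shTbl1xr1, and Pfkl, the liver phosphofructokinase, 27.5 to 46.5 and 29.2 to 40.9 CPM. Their log2 fold changes were 0.03 and -0.02. Pkm, the pyruvate kinase of non-hepatocyte and dividing cells, gave 46.7 to 71.4 CPM in shNC and 42.6, 30.0, 99.2 and 39.9 CPM in shTbl1xr1 1 to 4. The 99.2 CPM were in the library with the high cholangiocyte marker sum.

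The 5 members that bring in and trap glucose had log2 fold changes from -0.58 to 0.37, and 0 were called. Slc2a1, the glucose transporter GLUT1, had the smallest p of the 5 and measured 16.9, 17.1, 14.7 and 11.3 CPM in shNC and 19.8, 17.8, 15.8 and 19.7 CPM in shTbl1xr1 1 to 4. Its groups overlapped, with 3 of 4 shTbl1xr1 libraries above shNC (log2 fold change 0.28, standard error 0.17, edgeR adjusted p = 0.504). Slc2a2, the high-capacity liver transporter GLUT2, gave 65.2 to 126 CPM in shNC and 72.8, 88.4, 129 and 207 CPM in shTbl1xr1 1 to 4. Hk2, the inducible hexokinase of muscle and tumours, measured 1.77 to 2.48 CPM in shNC, 0.876 and 0.414 CPM in the shallow pair and 2.03 and 2.31 CPM in the deeper pair. Hk1, the hexokinase of most non-hepatocyte cells, measured 4.77 to 6.37 CPM in shNC, 4.01 and 3.18 CPM in the shallow pair and 7.15 and 5.16 CPM in the deeper pair. Both were low in the libraries in which the macrophage, endothelial and stellate markers were low; the part of those cells in these values was not tested. Gckr, a regulatory protein of glucose phosphorylation in hepatocytes, gave 52.1 to 96.3 CPM in shNC and 61.8 to 89.4 CPM in shTbl1xr1. Khk, the fructokinase through which fructose enters, measured 127, 101, 136 and 137 CPM in shNC and 241, 246, 108 and 138 CPM in shTbl1xr1 1 to 4. Its log2 fold change of 0.55 (standard error 0.28, edgeR adjusted p = 0.443) became -0.02 with the deeper pair alone.

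Levels between genes can be compared only per length, on the deposited TPM. In shNC the most abundant members were Ldha at 2123 ± 117 TPM and Gapdh at 1876 ± 567 TPM, which did not differ beyond their spread (SD, n = 4). Fbp1 at 1184 ± 108 and Pck1 at 1139 ± 396 TPM followed and likewise lay within their spread of each other. Next came Tpi1 at 441 ± 31.4 TPM, and the lowest were Rpia at 2.60 ± 0.38, Hk1 at 2.07 ± 0.38 and Hk2 at 0.747 ± 0.391 TPM. The genes named at the top were gluconeogenic and lower glycolytic enzymes, and the non-hepatocyte hexokinases were at the bottom. Role did not order the whole list. The gluconeogenic Pck2 averaged 8.4 TPM and the glycolytic Pkm 33.5 TPM in shNC. In shTbl1xr1, Ldha measured 1117 ± 229 TPM and Gapdh 2064 ± 269 TPM, and Ppp1r3c 4.93 ± 2.18 TPM against 22.8 ± 6.05 TPM in shNC.

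**Figure D3:**
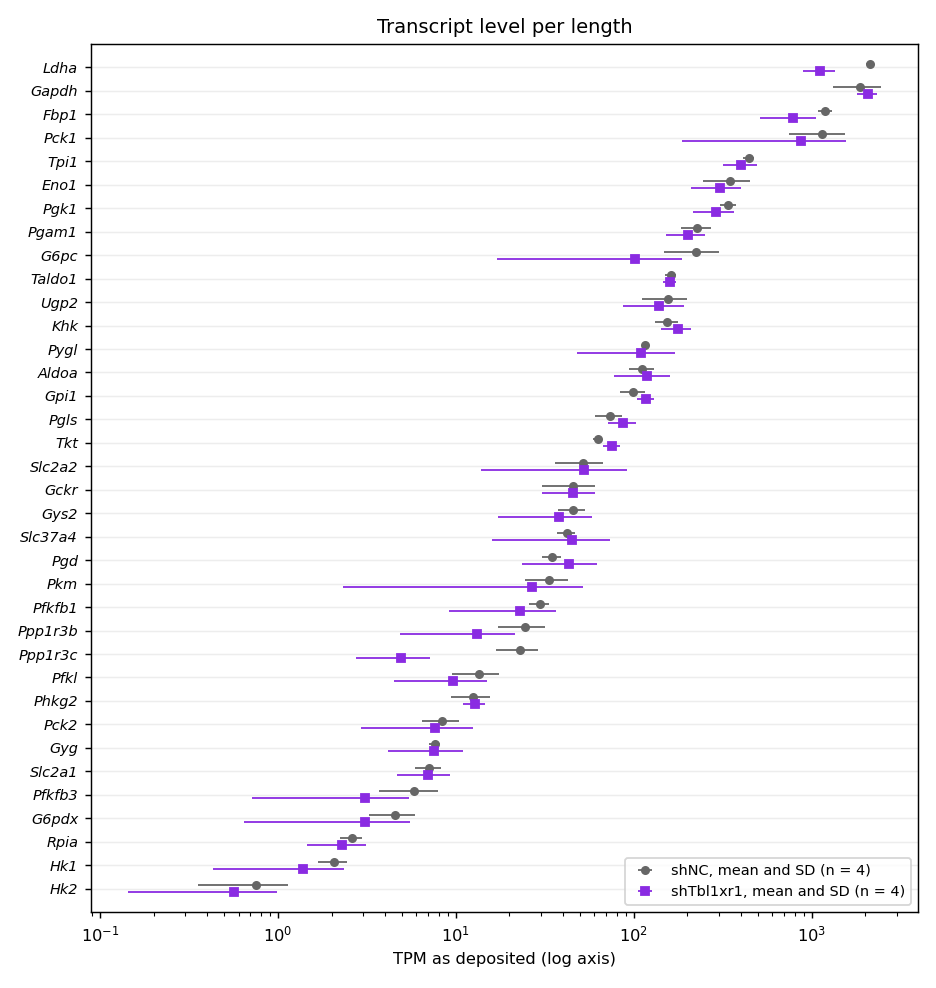
Deposited TPM of the 36 genes on a log axis, ordered by the shNC mean; grey circles are shNC and purple squares shTbl1xr1, each the mean with SD over 4 libraries. The genes span from 0.747 TPM for Hk2 to 2123 TPM for Ldha in shNC, and the error bars of most genes overlap, while those of Ldha, Fbp1, Ppp1r3c and Tkt do not.

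Ratios between isozymes, or between enzymes of 1 pathway such as Pgd and G6pdx, were computed within each library for 14 pairs, as a description without a test. Eno1 relative to Eno3 was higher in all 4 by TPM (7.15 ± 0.31 and 7.83 ± 0.07, SD, n = 4) but overlapped on expected counts. TPM ratios also follow the isoform lengths that the authors' estimates assign, and by TPM the other ratios overlapped except Pgd to G6pdx.

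The shallow pair differed from shNC in a way that followed gene length. Effective length, deposited with the counts, is the length open to fragments. Across the 36 members its Spearman correlation with the shallow pair's log2 difference from shNC was -0.76. Over all 13908 genes it was -0.53. For the deeper pair it was 0.05 over the members and 0.25 over all genes. These correlations are across genes, which share libraries and are not independent replicates. Over all genes the median difference in the shallow pair went from 1.02 for effective lengths up to 500 bases to -0.60 above 4000 bases, and from -0.16 to 0.12 in the deeper pair. Pgls, at 678 bases the shortest member, had the largest positive difference in the shallow pair, and Hk2, at 4242 bases the longest, had one of the largest negative differences.

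Each library's trend with length was therefore removed in an additional fit, chosen after the data were seen. It called 0 members and 0.209% of all genes. A fit with 1 surrogate variable called 0 members and 0.381% of all genes, and leaving out shTbl1xr1 4, the library whose absence gave the most calls, 0 members and 0.241%. With the length trend removed, Pgls went from a log2 fold change of 0.93 to 0.48, Taldo1 from 0.51 to 0.22, Khk from 0.55 to 0.28, Gapdh from 0.59 to 0.33, Aldoa from 0.67 to 0.49 and Phkg2 from 0.67 to 0.47. Pgd stayed at 0.77, Tkt at 0.53, G6pc at -0.92 and Ppp1r3c at -1.58. The shallow pair alone against shNC called 12 members higher and 7 lower, where 21.5% and 21.1% of all genes were called, so calls in that pair were frequent throughout the transcriptome.

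**Figure D4:**
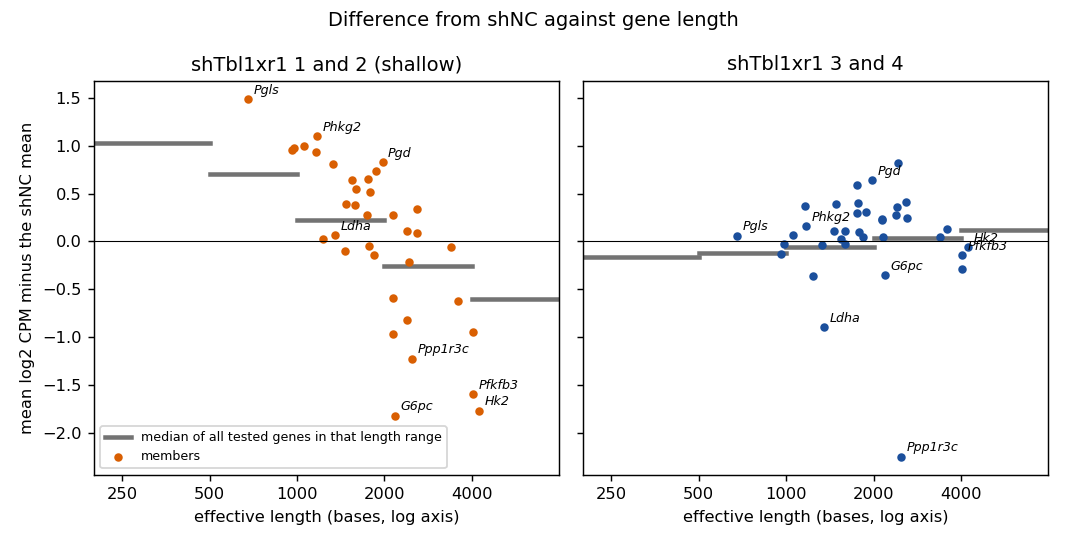
Each point is 1 of the 36 genes, placed by effective length (log axis, bases) and by mean log2 CPM minus the shNC mean, for the shallow pair on the left and shTbl1xr1 3 and 4 on the right; grey bars are the medians of all tested genes in 5 length ranges, the outer ones open-ended. On the left, short genes such as Pgls lie high and long genes such as Hk2 low, as the grey bars do; on the right the bars stay between -0.16 and 0.12 and Ppp1r3c and Ldha lie lowest.

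A further 124 genes of these pathways were listed, of which 117 were tested. None was called higher or lower by edgeR. Before adjustment, 9 had p under 0.05 with a higher level (7.9% of all genes) and 1 with a lower level (3.71% of all genes). Without overlap, 7 lay higher (3.88% of all genes) and 1 lower (3.37% of all genes), and the median log2 fold change was 0.11. Slc2a8, another sugar transporter, measured 8.33 to 12.7 CPM in shNC and 20.3, 17.0, 12.9 and 11.6 CPM in shTbl1xr1 1 to 4, with a log2 fold change of 0.56 (edgeR adjusted p = 0.412).

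Among the other isozymes, Pklr, the liver pyruvate kinase, had a log2 fold change of 0.12. Ldhd, the D-lactate dehydrogenase, was the single gene of the list with a lower level at p under 0.05 (means 229 ± 47.2 and 139 ± 40.9 CPM, SD, n = 4; log2 fold change -0.72, edgeR adjusted p = 0.382). Gpt, the alanine aminotransferase that feeds gluconeogenesis, measured 229, 188, 209 and 238 CPM in shNC and 383, 328, 368 and 260 CPM in shTbl1xr1, without overlap (0.63, standard error 0.19, edgeR adjusted p = 0.327). Shpk, the sedoheptulose kinase beside the pentose phosphate pathway, measured 20.7 to 23.0 CPM in shNC and 26.5 to 31.5 CPM in shTbl1xr1, also without overlap (0.42, edgeR adjusted p = 0.345). Tkfc, the triokinase that follows Khk, had 0.39 and Dld, the dehydrogenase shared by pyruvate dehydrogenase and related complexes, -0.35. Ppp1r3g, a further glycogen-targeting phosphatase subunit, was near the limit of detection in shNC at 0.0718 to 0.783 CPM and measured 0, 0.276, 2.93 and 4.21 CPM in shTbl1xr1 1 to 4. Its deeper pair lay above and its shallow pair within or below shNC.

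Among the regulators, Mlxipl, the glucose-sensing factor ChREBP, measured 49.0 to 65.8 CPM in shNC and 25.5, 30.9, 49.6 and 159 CPM in shTbl1xr1 1 to 4, so its log2 fold change of 0.14 rested on shTbl1xr1 4 and was -0.77 without that library. Myc was also highest in shTbl1xr1 4, at 4.39 to 6.94 CPM in shNC and 8.01, 4.28, 10.2 and 39.4 CPM in shTbl1xr1 1 to 4. Its log2 fold change of 1.56 fell to 0.50 without shTbl1xr1 4 but stayed positive. Trib3, a stress-induced pseudokinase, was above shNC in all 4 (0.425 to 1.43 CPM against 2.25, 1.52, 10.8 and 2.28 CPM; log2 fold change 2.09, or 1.0 without shTbl1xr1 3, edgeR adjusted p = 0.345). Nfe2l2, the factor NRF2 whose known targets include Pgd, Tkt, Taldo1 and G6pdx, had -0.11. Outside carbohydrate metabolism, the NRF2 targets Ugdh and Ephx1 had 0.85 and 0.63, and Ugdh was above shNC in all 4 libraries (148 to 171 CPM against 309, 320, 193 and 312 CPM; edgeR adjusted p = 0.234). Of the 9 tested genes of that list 8 were positive, with a median of 0.13, where 50.6% of all genes were positive. With the deeper pair alone 6 of the 9 were positive, and with 1 surrogate variable 5.

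Reads could be shared with near-identical copies for some members. Aldoa, Gapdh, Pgk1, Pgam1 and Ldha have 2 pseudogenes each by name. Those of Pgam1 carried 2.77% as many counts as the gene and those of the others at most 0.0141%. Only pseudogenes named after a member were counted, and reads on copies under other names were not examined. The strand setting is not given in the sources used here, so antisense transcripts overlapping a member cannot be told apart from it.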

How the data were processed

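For each library the authors deposited, per the file headers, for every gene an expected count, that is, an estimated number of fragments with decimals, and the effective length. The TPM values were also deposited by the authors, per the file headers, and are the expected counts divided by effective length and scaled by the library total. The build mm10 and the tools STAR, RSEM and DESeq2 1.30.1 are named in the submitters' processing notes, with no options. Which annotation release and which strand setting were used is not given in the sources used here.

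Expected counts were rounded. Symbols and coordinates came from GENCODE release M21 on GRCm38; 55141 of 55401 identifiers had a symbol. Aldoa has more than 1 gene model of that symbol, and ENSMUSG00000030695.16 was used. Genes were kept by filterByExpr, libraries scaled by TMM, and groups compared by edgeR 4.0.16 (R 4.3.3) with the robust quasi-likelihood test, no covariate, Benjamini-Hochberg adjustment over all genes tested and a threshold of 0.05. A prior count of 2 was added for log2 levels of single libraries. DESeq2 1.42.0, limma 3.58.1 (voom) and sva 3.50.0 served as alternatives. Tbl1xr1 was compared by an exact permutation test over 70 arrangements. Isozyme ratios used the deposited TPM. The script was checked on simulated data. The members, though listed without a cutoff on their values, and the pathway and marker lists were chosen with earlier results of these data known. Values in every library are given for members with an unadjusted p under 0.05 or groups that do not overlap and for the smallest p of each role. Of the further genes, Pklr, Mlxipl and Nfe2l2 are named in any case, and some that the rule names are not reported here. To these were added up to 2 per direction and sublist, or 1, by smallest p; further values were named after being seen.

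The marker lists not described in the report were lymphocytes (summed level 3.42 to 4.90 CPM in shNC and 2.13 to 3.59 CPM in shTbl1xr1), neutrophils (2.59 to 7.84 and 2.38 to 13.1 CPM), red blood cells (475 to 1425 and 445 to 999 CPM) and proliferation (404 to 602 and 403 to 525 CPM). Library totals run from 10728583 to 36720879 counts, so low genes carry more counting error in shTbl1xr1 1 and 2.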

Additional observations from a re-analysis of the deposited data

Results flagged for a closer look

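A sample far from the others of its group was looked for in 104 groups of 4 libraries, and 4 were found; chance alone gives about 1 in 20. Hk2 was lowest in shNC 4, at 1.77 CPM, where the other shNC libraries held 2.42 to 2.48 CPM. Pfkfb1 was highest in shTbl1xr1 4, at 43.3 CPM, where the other shTbl1xr1 libraries held 28.8 to 30.8 CPM. Pklr was also highest in shTbl1xr1 4, at 63.8 CPM against 47.6 to 49.4 CPM. Ugdh was lowest in shTbl1xr1 3, at 193 CPM against 309 to 320 CPM in the other shTbl1xr1 libraries, and still above every shNC library.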

How the results depend on the processing

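The 36 genes gave 754 log2 fold changes under 21 alternatives, Hk2 and Rpia being absent where a mean CPM of 5 was required. Of these, 682 kept their direction and side of the threshold, 21 passed it (19 with the shallow pair alone and 2 by DESeq2) and 51 had the opposite sign. The direction was the same throughout in 14 members: Hk2, Gpi1, Pfkfb3, Aldoa, Gapdh, G6pc, Slc37a4, Gyg, Phkg2, Ppp1r3b, Ppp1r3c, Pgls, Pgd and Tkt. Calls over all genes, 6 higher and 1 lower by edgeR, became 248 and 47 by DESeq2, 3073 and 3021 with the shallow pair alone, 45 and 8 with 1 surrogate variable, and 26 and 3 with the length trend removed, which was chosen after seeing the data. They were 12 higher without a filter on low counts, 3 higher by library size alone, and 0 lower by limma-voom and with the deeper libraries only. Leaving out 1 library gave 0 to 28 higher and 0 to 6 lower, the most without shTbl1xr1 4. Members called were 1 higher and 1 lower by DESeq2 and 12 higher and 7 lower with the shallow pair alone. Leaving out 1 library moved the Tbl1xr1 difference between -2.83 and -2.01, each with p = 0.0571, the smallest that 4 against 3 allows in the two-sided exact permutation test. The cause of these shifts was not tested, apart from the smaller sets of libraries.

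Whether replicate numbers pair the libraries could not be settled. Same-numbered deviations correlated at 0.38, -0.07, 0.30 and 0.12, and differently numbered ones at -0.38 to 0.37. With the replicate number as a block, 4 genes were higher and 1 lower, 0 members were called, and of the genes named Mlxipl alone had the opposite sign, at -0.29.

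Opposite signs were as follows. With the deeper libraries only: Hk1 0.14, Pfkl 0.035, Tpi1 -0.046, Pgk1 -0.026, Pkm 0.34, Pck1 0.32, Gys2 0.098, Khk -0.024, G6pdx 0.045, Taldo1 -0.13 and Nfe2l2 0.035. With the shallow pair alone: Slc2a2 -0.26, Gckr -0.093, Pfkfb1 -0.10, Ldha 0.060, Fbp1 0.078, Ppp1r3g -1.46 and Mlxipl -1.11. By library size alone: Slc2a1 -0.018, Gckr -0.10, Pfkfb1 -0.24, Pgk1 -0.067, Pgam1 -0.011, Eno1 -0.045, Pck2 -0.081, Ugp2 -0.088, Pygl -0.0022, Rpia -0.077, Pklr -0.16 and Mlxipl -0.0010. With 1 surrogate variable: Pfkl 0.012, Pkm 0.15, Pck1 0.081 and Gys2 0.056. With the length trend removed: Pfkl 0.14 and Pfkfb1 -0.033. By limma-voom: Pfkl 0.0014 and Mlxipl -0.27. By upper quartile scaling: Pfkfb1 -0.046. Leaving out 1 library gave ranges of -0.14 to 0.16 for Pfkl, -0.13 to 0.094 for Pfkfb1, -0.55 to 0.15 for Pkm, -0.40 to 0.055 for Pck1, -0.022 to 0.28 for Pck2, -0.37 to 0.00026 for Fbp1, -0.23 to 0.084 for Gys2, -0.77 to 0.41 for Mlxipl and -0.24 to 0.075 for Nfe2l2. Among the isozyme ratios, the difference in Hk2 to Hk1 was 0.17 with 0.1 added to the TPM, and on expected counts Slc2a1 to Slc2a2 was -0.0078 and Pkm to Pklr -0.31.

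Depth limits the low members: in the shallow pair, differences in Hk2, Hk1, G6pdx and Rpia rest on few counts.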
